A study of Mus musculus with 8 samples.

Results

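The genes described here are 10 members of the epidermal growth factor (EGF) signalling system: the ligands Hbegf, Areg, Ereg, Btc, Tgfa and Nrg1 and the ErbB receptors Egfr, Erbb2, Erbb3 and Erbb4. They were taken by gene symbol from the array annotation, with the transcript cluster of the highest mean used where a symbol has several. Of the 10 symbols, 9 were matched, among 19505 distinct symbols on the array, each to 1 cluster. Areg was not matched and is not analysed here. The family was selected on earlier results of these arrays, among them the difference of Hbegf between the EP4 antagonist and GHMT, so the members' values are a description of these cultures and Hbegf is given without a p-value.

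RNA came from mouse postnatal tail-tip fibroblasts (TTFs), and every culture was transduced with the GHMT mix of retroviruses. These carry the heart transcription factors Gata4, Hand2, Mef2c and Tbx5, which can reprogram fibroblasts toward cardiomyocytes. The 8 cultures, 1 Clariom S array each, form 2 sets by the number given to the fibroblasts. Set 1 held GHMT, GHMT with diclofenac (a cyclooxygenase inhibitor, which lowers prostaglandin synthesis), GHMT with an antagonist of the prostaglandin E2 (PGE2) receptor EP4, and GHMT with diclofenac plus PGE2. Set 2 held GHMT, GHMT with the EP4 antagonist, GHMT with a TGFb inhibitor and GHMT with a Wnt inhibitor. The compounds were added together with the viruses. The labels list DMSO among the additions but attach no compound to the GHMT arrays, and the labels leave mouse strain, exact age, doses and harvest time open. Cultures without GHMT were not among the samples, and nothing says whether the sets are separate animals.

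EGF family ligands are made as membrane-anchored precursors that proteases of the ADAM family cut from the cell surface. HB-EGF (Hbegf), epiregulin (Ereg), betacellulin (Btc) and TGF alpha (Tgfa) bind the EGF receptor, and all of these but TGF alpha also bind ErbB4, while neuregulin 1 (Nrg1) binds ErbB3 and ErbB4. ErbB2 has no ligand of its own and pairs with the others. Activated receptors signal through RAS to the kinase ERK, which induces its own inhibitors. In the heart, neuregulin 1 acting on ErbB2 and ErbB4 of cardiomyocytes is needed for trabeculation, and HB-EGF is needed for valve formation. PGE2 acting on EP4 raises cyclic AMP, which activates the transcription factor CREB.

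A cluster was taken as above background where it exceeded the 95th percentile of the 23 background probe sets of that array, a level of 5.73 to 5.99 on the log2 scale. By this measure 43.7% to 45.7% of the 22206 transcript clusters were above background in an array. Of the 9 members, 5 (Hbegf, Ereg, Nrg1, Egfr and Erbb2) were above it in all 8 arrays and 4 (Btc, Tgfa, Erbb3 and Erbb4) in none. Of 11 matched fibroblast markers, 10 were above background in every array, such as Col1a1 and Dcn, and Fap was above it in 1. Markers of endothelium (0 of 8 above background in any array), of keratinocytes and epithelium (1 of 14, the desmosome gene Dsp), of Schwann and neural cells (1 of 8, Pmp22) and of macrophages and leukocytes (1 of 10, Lyz2) were mostly at background. In whole cultures, fewer cells of a type and less RNA per cell cannot be told apart.

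**Figure D1:**
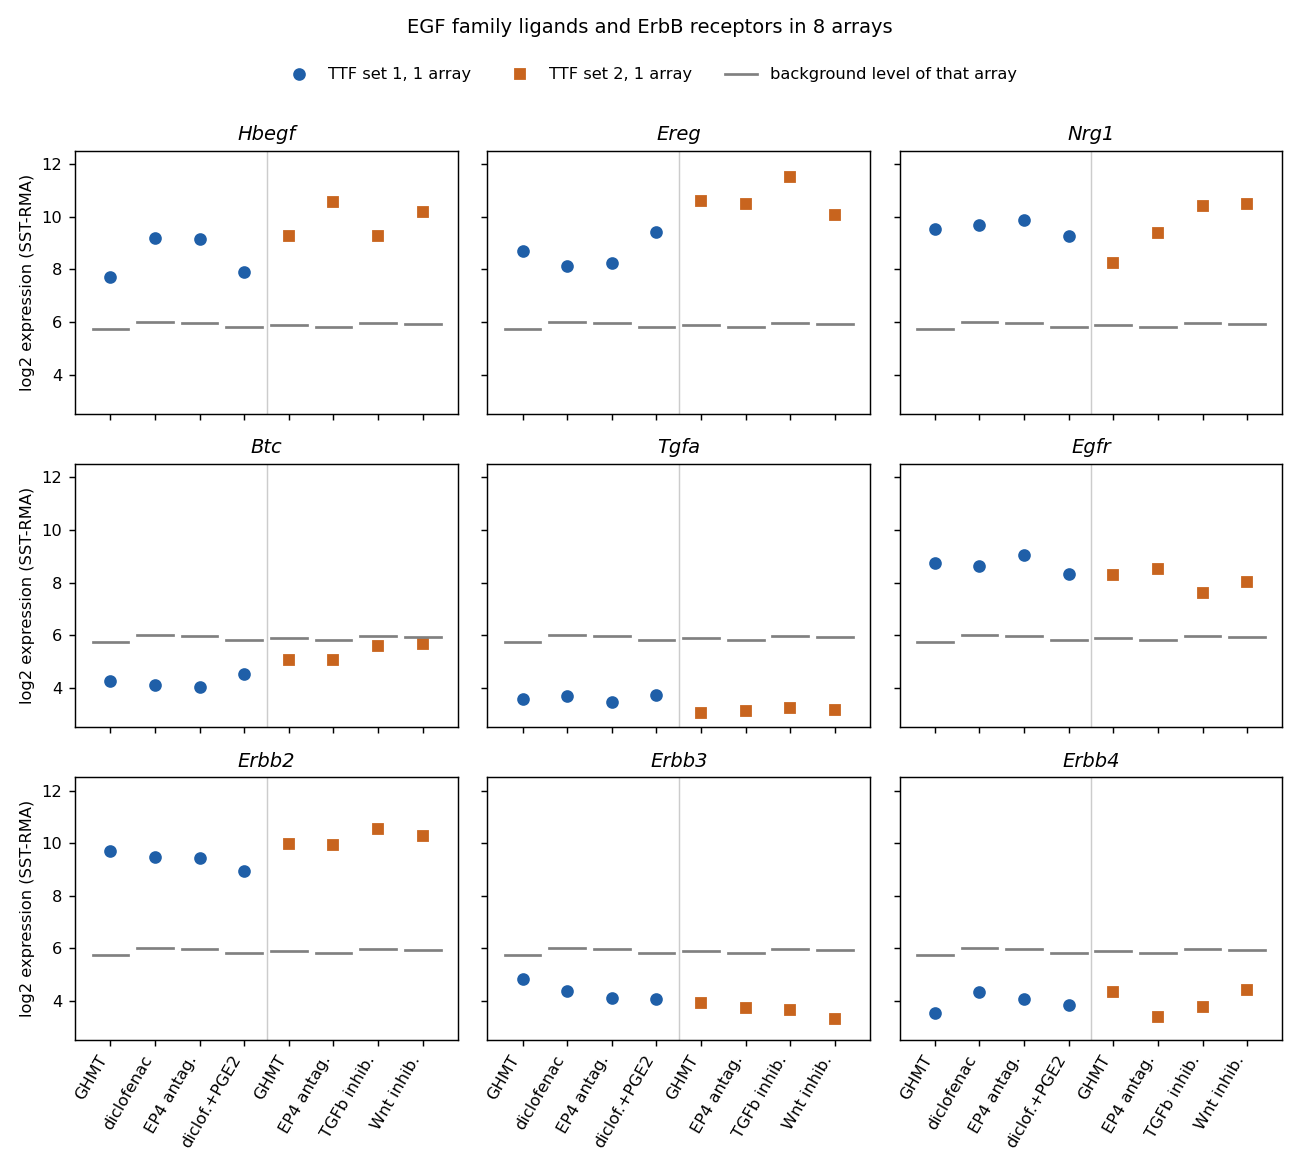
Log2 expression (y axis) of the 9 matched members in the 8 arrays (x axis), with TTF set 1 as blue circles, TTF set 2 as orange squares and the background level of each array as a gray line. Hbegf, Ereg, Nrg1, Egfr and Erbb2 lie above background in all 8 arrays, and Btc, Tgfa, Erbb3 and Erbb4 below it in all 8.

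Hbegf was higher in both arrays of set 1 in which PGE2-EP4 signalling was inhibited and was back near the GHMT level when PGE2 was added to diclofenac. In set 1 its log2 value was 7.72 with GHMT, 9.21 with diclofenac, 9.16 with the EP4 antagonist and 7.89 with diclofenac plus PGE2. The arrays with diclofenac or the antagonist lay close together and above the other arrays of the set. In set 2 the values were 9.29 with GHMT, 10.57 with the EP4 antagonist, 9.26 with the TGFb inhibitor and 10.19 with the Wnt inhibitor, so that the TGFb inhibitor array stood at the GHMT level and the other treated arrays above it. The sets differed by as much as the treatments, with GHMT 1.57 higher in set 2 than in set 1. HB-EGF is a heparin-binding ligand and a well-known source of EGF receptor activation by other receptors.

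As differences on the log2 scale within a set, Hbegf was higher than GHMT by 1.49 with diclofenac (2.81-fold), by 1.44 with the EP4 antagonist in set 1 (2.71-fold) and by 1.28 with the EP4 antagonist in set 2 (2.43-fold). Adding PGE2 to diclofenac was accompanied by a difference of -1.32. With the Wnt inhibitor it was higher by 0.90 (1.87-fold), and with the TGFb inhibitor it differed by -0.03. Diclofenac, the antagonist and PGE2 thus passed 2-fold, and the Wnt inhibitor did not. At least 2-fold higher with the EP4 antagonist in both sets were 0.271% of the 10707 clusters above background in at least 1 of these 4 arrays, Hbegf among them. The pattern of set 1, at least 2-fold above GHMT with diclofenac and with the EP4 antagonist and at least 2-fold below diclofenac with PGE2, was shared by 0.493% of 10543 clusters. These are single arrays, and the set 1 differences share the GHMT or the diclofenac array. The family was chosen with the Hbegf difference known, and the set 1 pattern counted is that of Hbegf itself. Nothing about Hbegf is therefore read from these shares.

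Epiregulin ran the other way from Hbegf in set 1. Ereg was at 8.72 with GHMT, 8.15 with diclofenac, 8.23 with the EP4 antagonist and 9.41 with diclofenac plus PGE2, so the inhibited arrays were lowest and the PGE2 array highest. In set 2 it was at 10.60 with GHMT, 10.51 with the EP4 antagonist, 11.52 with the TGFb inhibitor and 10.08 with the Wnt inhibitor. All 4 arrays of set 2 lay above all 4 of set 1, and GHMT was 1.88 higher in set 2. PGE2 added to diclofenac gave a difference of 1.26 (2.39-fold higher), the TGFb inhibitor one of 0.92 (1.89-fold), and the other differences from GHMT lay between -0.57 and 0.69. Over the 8 arrays, after the set mean was subtracted, Ereg and Hbegf had r = -0.741, the lowest of the 10 pairs of members above background, which is a description over arrays that share their set and GHMT culture.

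Neuregulin 1 differed most in set 2. Nrg1 was at 8.24 with GHMT of set 2 and at 9.39 with the EP4 antagonist, 10.42 with the TGFb inhibitor and 10.50 with the Wnt inhibitor. The GHMT array was the lowest of all 8 and all 3 treated arrays of its set lay above it, by 1.15 (2.22-fold), 2.18 (4.53-fold) and 2.26 (4.79-fold). In set 1 it spanned 0.60, with 9.55 in the GHMT array, 9.71 with diclofenac, 9.89 with the EP4 antagonist and 9.29 with diclofenac plus PGE2. All 3 differences of set 2 share its GHMT array. The Wnt and TGFb inhibitor arrays also lay above every array of set 1.

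Among the receptors, Egfr, the receptor of HB-EGF and epiregulin, stayed within 0.72 in set 1 and 0.89 in set 2. It was at 8.76 with GHMT, 8.63 with diclofenac, 9.03 with the EP4 antagonist and 8.31 with diclofenac plus PGE2. In set 2 it was at 8.28 with GHMT, 8.50 with the EP4 antagonist, 7.61 with the TGFb inhibitor, the lowest of all arrays, and 8.03 with the Wnt inhibitor. The EP4 antagonist array was the highest of its set in both sets, by 0.27 and 0.22 over GHMT.

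Erbb2, the partner receptor without a ligand, was at 9.69 with GHMT, 9.48 with diclofenac, 9.42 with the EP4 antagonist and 8.93 with diclofenac plus PGE2. In set 2 it was at 9.97, 9.92 with the EP4 antagonist, 10.52 with the TGFb inhibitor and 10.27 with the Wnt inhibitor. Its lowest value was that of the PGE2 array, 0.76 below GHMT, and its highest that of the TGFb inhibitor array, where Egfr was lowest. No receptor difference from GHMT within a set reached 2-fold.

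The members at background were Btc (4.01 to 5.66), Tgfa (3.05 to 3.74), Erbb3 (3.30 to 4.83) and Erbb4 (3.39 to 4.40). Both receptors that bind neuregulin 1 were thus without a signal above background in all 8 arrays, and their differences are not given. The Btc values came closest, at 5.60 with the TGFb inhibitor and 5.66 with the Wnt inhibitor. GHMT and the EP4 antagonist of the same set were both at 5.05, and the arrays of set 1 at 4.01 to 4.53. Of the other EGF family ligands, Egf, Epgn, Nrg2, Nrg3 and Nrg4 were at background in all 8 arrays too. In RefSeq, Epgn, Ereg, Areg and Btc follow each other on chromosome 5 with no other protein-coding gene between them, and of the 3 measured here only Ereg was above background.

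**Figure D2:**
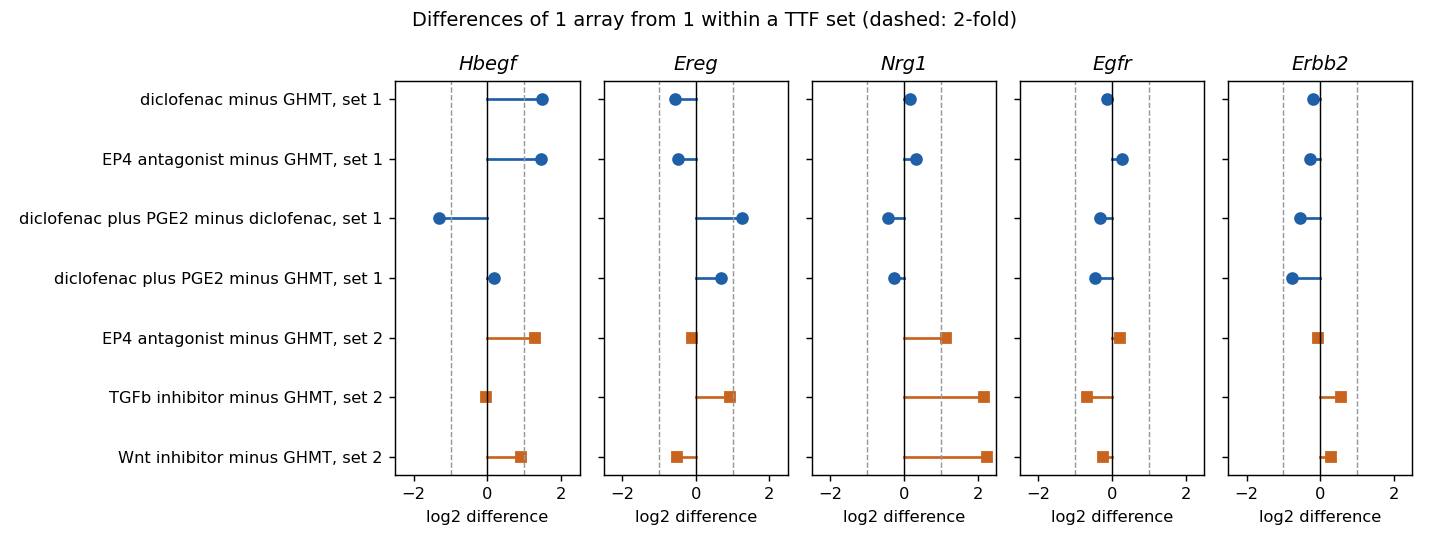
Log2 differences (x axis) of 1 array from 1 array of the same TTF set for the 5 members above background, in 7 contrasts (rows), with set 1 as blue circles, set 2 as orange squares and 2-fold as dashed lines. Hbegf passes 2-fold in 4 contrasts, Nrg1 in 3 and Ereg in 1, and neither receptor in any.

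Counted at 2-fold among the 5 members above background, Hbegf was higher with diclofenac, where 2.99% of the clusters above background were at least 2-fold apart in either direction. With the EP4 antagonist it was Hbegf in set 1 (2.68% of clusters), and Hbegf and Nrg1 in set 2 (4.16%). With PGE2 added to diclofenac, Hbegf was lower and Ereg higher (3.99%). Diclofenac plus PGE2 against GHMT gave 0 members (3.06%), while Nrg1 was higher with the TGFb inhibitor (9.52%) and with the Wnt inhibitor (6.79%).

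In the first of the comparisons with more than 1 array per arm, the EP4 antagonist was set against GHMT (n = 2 each, 1 per set). By limma, without the TTF set in the model, 0 of the 9 members passed an adjusted p of 0.05 over all clusters, as did 0% of the 22206 clusters (144 at an unadjusted p under 0.05). With the set as a block 0 passed too, again 0% (1243 unadjusted). Hbegf was higher by 1.36 ± 0.20 (SE with the block) and Nrg1 by 0.74 ± 0.26 (adjusted p = 0.866 by limma with the block; 0.34 in set 1 and 1.15 in set 2). Egfr differed by 0.25 ± 0.20 (adjusted p = 0.928), Erbb2 by -0.16 ± 0.20 (0.952) and Ereg by -0.29 ± 0.21 (0.927).

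In the second comparison, 3 inhibited arrays (diclofenac, and the EP4 antagonist of both sets) were set against 3 in which PGE2-EP4 signalling was not blocked (GHMT of both sets, and diclofenac plus PGE2), called active here. Each arm mixes treatments that are no true replicates, and the arms contain the 4 arrays of the first comparison. Without the set in the model, 0 of the 9 members and 0% of clusters passed by limma (469 clusters at an unadjusted p under 0.05). With the set as a block, Hbegf passed (1.35 ± 0.15, SE; 2.54-fold), where 0.378% of all clusters did. Nothing is read from this count, because the family was chosen with that difference known. The call was lost when the diclofenac array or either EP4 antagonist array was left out, or GHMT of set 2, while the difference stayed at 1.29 to 1.39. With the block, Nrg1 (0.64 ± 0.19, adjusted p = 0.311 by limma), Ereg (-0.61 ± 0.23, 0.444), Egfr (0.27 ± 0.18, 0.764) and Erbb2 (0.08 ± 0.20, 0.959) missed the threshold. For Ereg the difference was -0.88 in set 1 and -0.09 in set 2.

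**Figure D3:**
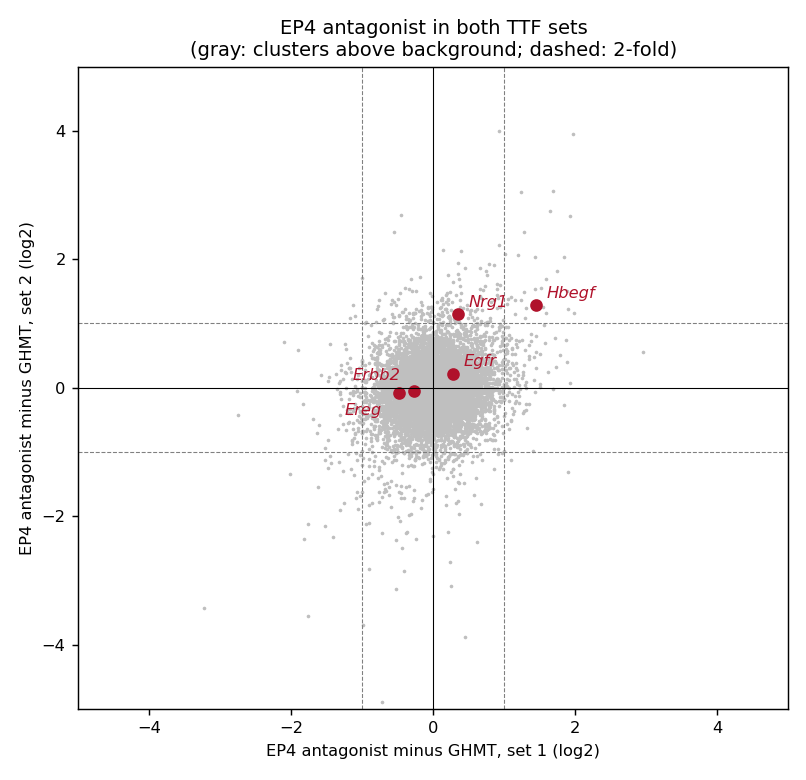
Log2 difference of the EP4 antagonist from GHMT in TTF set 1 (x axis) and TTF set 2 (y axis) for the 10707 clusters above background in at least 1 of the 4 arrays (gray), with the 5 members above background in red and 2-fold as dashed lines. Hbegf lies beyond 2-fold in both sets (1.44 and 1.28), Nrg1 only in set 2 (0.34 and 1.15), and Ereg, Egfr and Erbb2 within 2-fold in both.

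Taken as a sum, markers of cardiomyocytes were higher in the arrays of set 1 in which Hbegf was higher, though not every marker was. Over the 12 markers listed, of which Tnni3, Pln, Myh7 and Nkx2-5 were at background in every array, the summed log2 level in set 1 was 100.1 with GHMT and 97.57 with diclofenac plus PGE2, against 114.0 with diclofenac and 109.0 with the EP4 antagonist. In set 2 it was 96.01 with GHMT, 107.4 with the EP4 antagonist, 109.6 with the TGFb inhibitor and 110.1 with the Wnt inhibitor. The TGFb inhibitor array was thus high in these markers with Hbegf at the GHMT level. In set 1, Nppa did not follow the sum. It was at 13.66 with diclofenac plus PGE2, 13.41 with the EP4 antagonist and 12.26 with GHMT. Tnnt2 was at 17.96, 18.07 and 17.50 in these arrays. The other markers above background in set 1 were lower with diclofenac plus PGE2 than with the EP4 antagonist. In the second comparison all 8 markers above background had positive differences (median 0.98). The signs over all clusters were not counted, so no shift is read from this. The arms overlapped for all but Myh6 and Actc1, while 3.24% of the clusters above background were higher without overlap. Nppb was above background in only 2 of these arrays and differed by -0.1 in set 1, and Actn2 differed by 0.01 in set 2. Myh6, Actc1 and Myl7 passed with the block, where 0.378% of all clusters did, and 0 markers passed without it. The summed level of 11 fibroblast markers was 154.5 to 155.7 in the active and 149.4 to 150.0 in the inhibited arrays of set 1. In set 2 it was 151.8 with GHMT, 149.2 with the EP4 antagonist, 148 with the TGFb inhibitor and 153.1 with the Wnt inhibitor. The Wnt inhibitor array, with Hbegf above GHMT, thus had the highest sum of its set, and the TGFb inhibitor array the lowest. In the second comparison 8 fibroblast markers had negative differences and 2 had positive ones (Pdgfrb and Vim). The part of these cell states in the Hbegf values was not tested.

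The genes whose pattern was most like that of a member were ranked by Pearson correlation over the 8 arrays after subtraction of the set mean, among 2365 other symbols that spanned at least 1 log2 unit within a set. For Hbegf they were Mb, the oxygen-binding myoglobin of heart and skeletal muscle (r = 0.982), Lbh, a transcription cofactor of limb bud and heart (0.980), and Fam189a2 (0.959). Mb, for example, was at 5.60 with GHMT, 6.79 with diclofenac, 6.63 with the EP4 antagonist and 5.78 with diclofenac plus PGE2, and at 4.92, 6.23, 4.78 and 5.70 in set 2 with GHMT, the EP4 antagonist, the TGFb inhibitor and the Wnt inhibitor, so its GHMT, diclofenac plus PGE2, TGFb inhibitor and Wnt inhibitor arrays were at background. For Ereg they were Rhou, a small GTPase (0.955), Abcb1a, a drug efflux pump (0.946), and Mrgprf (0.943). Abcb1a was at background in set 1 with GHMT (5.57), diclofenac (4.75) and the EP4 antagonist (5.22). For Nrg1 they were Mr1, which presents metabolites to T cells (0.985), Acer2, a ceramidase (0.981), and Trp53i11 (0.980). Acer2 was at background in set 2 with GHMT (4.91) and the EP4 antagonist (5.48). All these r values were picked as the highest among 2365 symbols over 8 arrays, so they are a description.

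The route downstream of the receptors was followed in 5 lists with 84 genes, of which 76 were matched. Like the members, the lists were chosen with earlier results of these data known, so their calls are a description. Feedback inhibitors of ErbB and ERK signalling (20 matched, all above background in at least 1 array of the second comparison) had 9 positive and 11 negative differences there (median -0.04). Dusp5, a phosphatase that acts on nuclear ERK, was at 7.44 with GHMT, 8.08 with diclofenac, 8.16 with the EP4 antagonist and 6.87 with diclofenac plus PGE2. In set 2 it was at 7.45 with GHMT, 9.04 with the EP4 antagonist, 8.66 with the TGFb inhibitor and 8.69 with the Wnt inhibitor. All inhibited arrays lay above all active ones, as in 3.24% of the clusters above background. With the set as a block, Dusp5 rose by 1.17 ± 0.20 (2.26-fold, adjusted p = 0.0498 by limma), the only gene of the 5 lists past the threshold, against 0.378% of all clusters. The call was lost when any array other than GHMT of set 1 was left out (adjusted p 0.18 to 0.288) and without the block.

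Spry4, an inhibitor of RAS-ERK signalling, was at 9.19 with GHMT, 9.98 with diclofenac, 9.70 with the EP4 antagonist and 8.46 with diclofenac plus PGE2, and in set 2 at 8.06, 9.21 with the EP4 antagonist, 8.37 with the TGFb inhibitor and 9.49 with the Wnt inhibitor. Its difference in the second comparison was 1.06 ± 0.20 with the block and missed the threshold (adjusted p = 0.0784 by limma). Like Hbegf, Spry4 was near GHMT with the TGFb inhibitor and above it with the Wnt inhibitor. Unlike Hbegf, Dusp5 was above GHMT of set 2 (7.45) with the TGFb inhibitor (8.66) as well as with the Wnt inhibitor (8.69). Errfi1, which binds and inhibits the EGF receptor, went with Ereg in set 1: it was at 10.96 with GHMT, 10.66 with diclofenac, 10.65 with the EP4 antagonist and 12.20 with diclofenac plus PGE2. In set 2 it was at 12.47, 12.04 with the EP4 antagonist, 12.49 with the TGFb inhibitor and 11.87 with the Wnt inhibitor. PGE2 added to diclofenac gave a difference of 1.54 (2.91-fold higher), and the second comparison one of -0.76 ± 0.28 (adjusted p = 0.445 by limma with the block). In the EP4 antagonist array of set 2, Dusp4, another ERK phosphatase, was at least 1.16-fold above GHMT, which was at background.

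**Figure D4:**
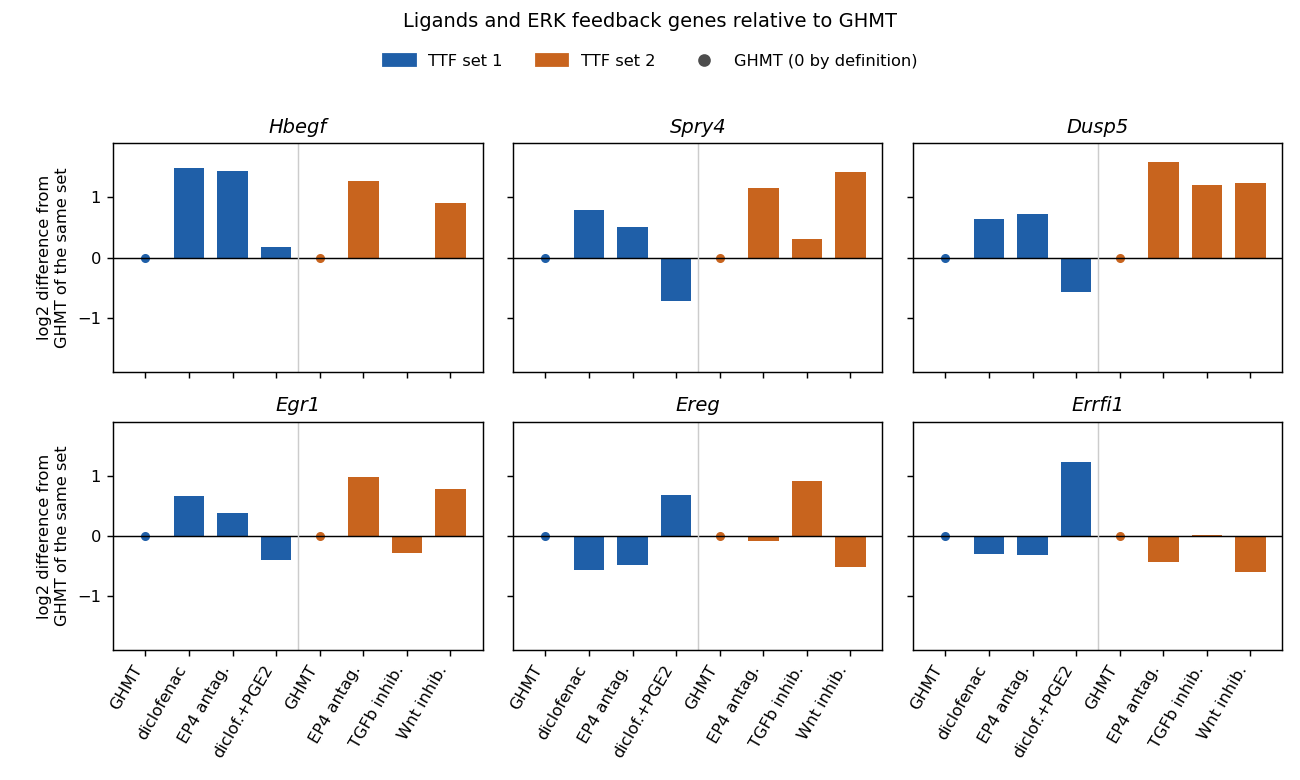
Log2 difference from the GHMT array of the same TTF set (y axis) for Hbegf, Spry4, Dusp5, Egr1, Ereg and Errfi1 in each array (x axis), with set 1 in blue and set 2 in orange. Hbegf, Spry4, Dusp5 and Egr1 are above 0 with diclofenac and with the EP4 antagonist in both sets, and Ereg and Errfi1 are above 0 with diclofenac plus PGE2.

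Upstream windows of Errfi1 and Dusp5 are shown because these feedback genes ran with Ereg and with Hbegf in set 1, and they were chosen after their values were seen. The RefSeq windows cover 250 bases before to 50 after a gene's start (GRCm38.p6); 6 of the 10 members have one, but Hbegf, Ereg and Nrg1 are not among them. Printed are the 250 bases before the start, and the search was made on both strands. Capitals mark the cyclic AMP response element (CRE) TGACGTCA in Errfi1, which starts 51 bases before this start, one of the gene's 2 listed starts. In Dusp5 they mark 2 adjoining serum response elements (CArG boxes), the site of serum response factor, which ERK signalling engages through its partners.
Errfi1, chr4:150854820-150855069, plus strand: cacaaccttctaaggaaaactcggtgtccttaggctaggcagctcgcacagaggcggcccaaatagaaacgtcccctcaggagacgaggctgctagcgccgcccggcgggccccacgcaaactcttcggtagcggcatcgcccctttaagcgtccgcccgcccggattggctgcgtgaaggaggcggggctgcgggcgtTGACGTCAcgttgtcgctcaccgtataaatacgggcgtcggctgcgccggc
Dusp5, chr19:53528895-53529144, plus strand: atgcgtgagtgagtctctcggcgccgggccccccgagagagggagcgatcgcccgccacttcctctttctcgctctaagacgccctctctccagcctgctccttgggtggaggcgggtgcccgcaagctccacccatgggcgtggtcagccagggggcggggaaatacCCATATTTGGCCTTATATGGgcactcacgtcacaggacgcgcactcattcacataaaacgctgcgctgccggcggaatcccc
Of all 32851 windows, 1.79% hold a CRE, 1.63% a CArG box and 13.6% the TATA box TATAAA, which the Errfi1 window holds too. Of the members' windows, that of Areg, which has no value here, holds a CRE and a TATA box, and those of Egfr, Erbb2, Btc, Tgfa and Erbb4 hold none of the motifs. The CRE was searched for only in its exact letters, so near variants were not counted in any window, that of Dusp5 included. A match is a description of the letters and not evidence of binding.

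Transcripts that ERK induces (20 of 22 matched, 17 above background in at least 1 array of the second comparison) had 13 positive and 4 negative differences there (median 0.13), with 0 past the threshold with or without the block. The signs over all clusters were not counted for this comparison, so no shift is read from these. Against GHMT in set 1, diclofenac gave 9 positive and 6 negative differences. The EP4 antagonist gave 7 and 8 in set 1, and 12 and 4 in set 2. Egr1, an immediate early transcription factor, was at 12.64 with GHMT, 13.30 with diclofenac, 13.03 with the EP4 antagonist and 12.24 with diclofenac plus PGE2, and in set 2 at 11.92, 12.91 with the EP4 antagonist, 11.63 with the TGFb inhibitor and 12.70 with the Wnt inhibitor. The inhibited arrays were above the active ones in each set, and the difference of 0.81 ± 0.17 missed the threshold (adjusted p = 0.106 by limma with the block). With the EP4 antagonist in set 2, Plaur, the urokinase receptor, was higher than GHMT by 1.05, Egr2 was at least 1.3-fold higher than GHMT, which was at background, and Fos was lower (-1.08). Etv5, an ERK-induced ETS factor, was lower with diclofenac plus PGE2 than with GHMT (-1.14), and Etv1, of the same family, was higher than GHMT at background with the TGFb inhibitor (at least 1.44-fold) and the Wnt inhibitor (at least 1.21-fold).

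Genes of ligand shedding and trafficking (13 of 14 matched, 12 above background) had 0 past the threshold in either comparison (median 0.08 in the second). Adam17, the main protease that releases HB-EGF and epiregulin, was at 10.42 to 11.47 in the 8 arrays. Adam12, another protease that can release HB-EGF, was at 10.47 with GHMT of set 2 and 7.30 with the TGFb inhibitor, a difference of -3.17, and with diclofenac at 9.07 against 10.08 with GHMT (-1.01). Of 18 matched adaptors and kinases of the RAS, ERK and PI3K route, all above background, 0 passed in either comparison (median -0.04 in the second), and 1 difference reached 2-fold, that of Pik3r1, a PI3K regulatory subunit, with the TGFb inhibitor (1.00). Over all lists, the EP4 antagonist array of set 2 had the most genes at least 2-fold from GHMT (6 of 64 above background, against 4.16% of clusters). For Dusp4 and Egr2 among the 6, GHMT was at background, so their "at least" folds given above are below 2. The share over clusters includes such cases too. The EP4 antagonist array of set 1 had 0 of 63 (2.68% of clusters).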

How the data were processed

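Total RNA of 8 cultures was hybridised to 8 Clariom S Mouse arrays. The deposited values are log2 expression values that the authors made by SST-RMA with Affymetrix Expression Console 1.4, per the submitters' design text and processing notes. Whether both sets were normalized together, the genome build and any filter were not given in the sources. Differences were taken within a TTF set, and genes were named by GEO's platform annotation. EP4 antagonist and GHMT (2 against 2), and inhibited and active signalling (3 against 3), were compared by limma 3.58.1 (lmFit, eBayes) in R 4.3.3, two-sided, Benjamini-Hochberg adjusted over all 22206 transcript clusters, threshold 0.05, once without the TTF set and once with it as a block. The titles attach the set number to the fibroblasts, and the GHMT and EP4 antagonist arrays of a set deviated together from the means of their groups (r = 0.724), so the number was taken to pair the arrays. No label calls the replicates independent, so the p-values cover only the spread among these arrays, which may be technical. Other contrasts are 1 array against 1, with no test, counted at 2-fold. All members are named, as are up to 4 genes of a list per contrast that were called or at least 2-fold apart above background; Spry4, Egr1, Errfi1 and Adam17 are also described beyond that. An "at least" fold is against the background level of the lower array. The number of arrays limits the precision. Members and lists were chosen with earlier results of these data known. The fit was tested on simulated data.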

Additional observations from a re-analysis of the deposited data

Results flagged for a closer look

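The difference of the EP4 antagonist from GHMT had opposite signs in the TTF sets for 26 of the 60 genes of the pathway lists that were above background in both sets, with 0 of the 26 at least 2-fold apart in both. With 1 array per arm and set, the difference between the sets was not tested. The share of opposite signs over all clusters was not counted, so nothing particular to these lists is read from the 26. Of the list genes described by name, 4 are among them. Fos was at -1.08 in set 2 and 0.20 in set 1. Egr2 was at 1.11 in set 2, with GHMT at background, and -0.05 in set 1. Pik3r1 was at -0.30 in set 2 and 0.08 in set 1, and Adam17 at 0.27 in set 2 and -0.37 in set 1. None of the 5 members above background differed in sign between the sets.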

How the results depend on the processing

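For inhibited against active signalling, 1 member (Hbegf) and 1 list gene (Dusp5) passed with the TTF set as a replicate block. So did 3 cardiomyocyte markers, and 0 of these passed without the block. Among the members, list genes and cell type markers, the block changed no other call. The genes ranked by likeness were not looked up in these fits. The block moved the count over all clusters from 0 to 84. With the block, this count was 143 with a trend and robust prior, 78 with quantile normalization, and 0 to 192 with 1 array left out. For the EP4 antagonist, over all clusters, 0 passed with or without the block, 8 when a trended, robust prior was added to the block, 31 when quantile normalization was, and 1 to 25 with 1 array left out, where the lone array of an arm is assumed to vary like the other group. The alternatives that combine the block with another choice were added after seeing the data. With a trend and robust prior, 1 member and 3 list genes (Dusp5, Spry4, Egr1) passed, and with quantile normalization 1 member and 0 list genes (Dusp5 at adjusted p = 0.0583), and also 1 member for the EP4 antagonist (Hbegf, on whose difference the family was selected). Leaving out 1 array each with the block gave 0 to 1 members and 0 to 3 list genes: 1 member and 3 list genes without GHMT replicate 1, 1 member without diclofenac plus PGE2, and 0 otherwise. The difference then ranged from -0.87 to -0.34 for Ereg, 0.38 to 0.78 for Nrg1, 0.13 to 0.39 for Egfr, -0.16 to 0.28 for Erbb2 and -1.07 to -0.36 for Errfi1. Without the block, leaving out 1 array each mixes the sets: 0 members passed in either comparison, 0 to 1 list genes for the EP4 antagonist (Plaur, without EP4 antagonist replicate 1) and 0 for the other. In these fits the EP4 antagonist difference ranged from -1.43 to 0.85 for Ereg, -0.02 to 0.51 for Egfr, -0.41 to 0.09 for Erbb2, -1.12 to 0.39 for Errfi1, 0.58 to 2.15 for Hbegf and 0.09 to 1.4 for Nrg1, so the signs of Ereg, Egfr, Erbb2 and Errfi1 depended there on the array left out. For inhibited against active signalling, of the members above background, only Erbb2 changed sign (-0.22 to 0.30). Counted at 1.5-fold in place of 2-fold, list genes apart were 10 with diclofenac, 12 with the EP4 antagonist in set 1 and 16 in set 2, 12 with PGE2 against diclofenac, 10 with diclofenac plus PGE2 against GHMT, 13 with the TGFb inhibitor and 9 with the Wnt inhibitor; members apart were 2 with diclofenac plus PGE2 against GHMT, 3 with the TGFb inhibitor and 2 with the Wnt inhibitor. Quantile normalization or aligned array medians moved the single-array differences of the members by at most 0.09 and turned none that reached 2-fold. Btc, Tgfa, Erbb3 and Erbb4 lay at background, so no change in them could be measured.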
